A study of Mus musculus with 12 samples.

Results

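Enzymes of the pentose phosphate pathway, malic enzymes and NADP-dependent isocitrate dehydrogenases were followed in C2C12 cells, an established line of mouse myoblasts. Some of these enzymes make NADPH and others do not. Their 10 genes (G6pdx, Pgls, Pgd, Rpia, Taldo1, Tkt, Me1, Me2, Idh1 and Idh2) were taken by name from a deposited table of 54532 genes, and all 10 were among the 15122 genes with enough counts to be tested. Cells were transfected with 30 nM siRNA for 48 h in medium that the labels give as 5% FBS, where the study's methods give another share of serum. For siKEAP1/siCCNF, the sources used here do not say if this dose was split between both siRNAs or given of each. The 4 groups received control siRNA (siCONTROL), siRNA that targets Keap1 (siKEAP1), siRNA that targets Ccnf (siCCNF) or the combination (siKEAP1/siCCNF), each with 3 biological replicates, for 12 libraries of bulk RNA. The labels name no engineered allele and no drug, and siRNA lowers an mRNA without removing its gene. The question was how loss of KEAP1, of CCNF or of both moved the mRNAs of these 10 genes.

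NADPH is the reducing agent that glutathione reductase and thioredoxin reductase spend when a cell removes peroxides, and it also serves fatty acid and nucleotide synthesis. The oxidative branch of the pentose phosphate pathway makes NADPH from glucose 6-phosphate, its non-oxidative branch exchanges pentose phosphates with glycolytic sugars, and malic enzymes and NADP-dependent isocitrate dehydrogenases supply further NADPH in the cytosol and in mitochondria. KEAP1 is the substrate adaptor of a CUL3 ubiquitin ligase that targets the transcription factor NRF2, the product of Nfe2l2, for degradation. NRF2 is known to drive several of these genes through the antioxidant response element. Ccnf codes for cyclin F, a substrate adaptor of an SCF ubiquitin ligase.

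Depletion of KEAP1 raised 6 of the 10 mRNAs and lowered 1, beside 20.4% and 20.2% of all genes tested. G6pdx rose most, by 3.76-fold, followed by Tkt at 3.18-fold, Idh1 at 2.30-fold, Me1 at 1.95-fold, Taldo1 at 1.41-fold and Pgd at 1.35-fold, while Idh2 fell. Depletion of CCNF lowered 7 of the 10 and raised none, beside 25.5% and 22.5% of all genes tested. In cells depleted of both, G6pdx and Tkt stood near their siCONTROL level, Me1 and Pgd above it, and Taldo1, Idh1, Idh2 and Me2 below it. In the fit of 4 group means over all 12 libraries, Pgls and Rpia passed the test in none of the comparisons with siCONTROL.

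The targeted mRNAs followed the labels. Keap1 stood at 87.8 ± 3.05 CPM in siCONTROL (CPM are counts scaled to the total of the tested genes in each library, given as mean ± SD, n = 3), at 12.6 ± 0.279 CPM after siKEAP1, at 85.1 ± 4.35 CPM after siCCNF and at 24.1 ± 2.56 CPM after siKEAP1/siCCNF. Ccnf stood at 81.1 ± 3.99 CPM in siCONTROL, at 59.4 ± 4.83 CPM after siKEAP1, at 20.5 ± 0.778 CPM after siCCNF and at 24.5 ± 1.01 CPM after siKEAP1/siCCNF. The double depletion thus left more Keap1 mRNA than siKEAP1 alone, and the part of this in any difference between these groups was not tested. Nfe2l2 mRNA stood at 170.5 ± 4.34, 150 ± 4.42, 129 ± 3.27 and 109.7 ± 2.09 CPM in the same order of groups.

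Libraries held 18464209 to 37743198 counts, and each member had between 383 and 10829 counts in every library. Replicate 1 of siCONTROL and replicate 3 of siKEAP1/siCCNF stood apart from the other libraries of their groups, with a chi-square per gene of 29.4 to 43.6 against their replicates where all other replicate pairs gave 2.97 to 13.3. Across genes, how far each of these 2 libraries lay from its group's mean correlated with log2 gene length at -0.305 and -0.276, against -0.094 to 0.206 in the other libraries, and the 2 sets of deviations correlated with each other at 0.39. Mitochondrially encoded transcripts took 2.16% to 2.24% of counts in siCONTROL and 2.73% to 3.83% in the depleted groups. The summed level of the myoblast markers (5 of 6 tested, among them Myod1, Myf5 and Des) was 1283 to 1523 CPM in siCONTROL, 784 to 813 after siKEAP1, 566 to 578 after siCCNF and 539 to 639.7 after both. That of markers of differentiated muscle (10 of 14 tested, among them Myog) was 83.7 to 188, 7.46 to 8.02, 28.3 to 42.1 and 15.9 to 18.1 CPM. After siKEAP1, siCCNF and both, 5, 5 and 5 of 5 tested myoblast markers and 9, 8 and 9 of 10 tested differentiated muscle markers were called lower, beside 20.2%, 25.5% and 23.6% of all genes tested, and Msc of the myoblast list stood near 0 in every group. The 5 macrophage markers summed to 1.16 to 2.12 CPM in siCONTROL and 5.67 to 10.7 after siKEAP1, with Itgam at 0 in every library. Cd68 rose from 0.997 ± 0.343 CPM in siCONTROL to 7.34 ± 2.38 after siKEAP1, where it made up nearly all of the sum. Csf1r stood at 0.527 ± 0.297 and 0.370 ± 0.171 CPM in these groups. The 5 adipocyte markers, mainly Fabp4, summed to 0.045 to 0.144 CPM in siCONTROL and 2.24 to 3.40 after siKEAP1, with Cidec at 0 in every library. The 5 endothelial markers summed to 0.672 to 1.36 CPM in siCONTROL and 2.32 to 3.02 after siKEAP1. Both sums were highest after siKEAP1. The part of these markers in the changes below was not tested, and in bulk RNA fewer cells of a kind and less RNA per cell cannot be told apart.

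G6pdx codes for glucose-6-phosphate dehydrogenase, which commits glucose 6-phosphate to the oxidative branch and makes its first NADPH. The table places it at X:74409483-74429194 on the minus strand of GRCm38, as a protein-coding gene. It stood at 113, 119 and 112 CPM in the siCONTROL libraries, at 431, 439 and 423 CPM after siKEAP1, at 62.1, 64.8 and 61.2 CPM after siCCNF and at 110.4, 122 and 113 CPM after both. The siKEAP1 libraries were the highest and the siCCNF libraries the lowest without overlap, and the siCONTROL and siKEAP1/siCCNF libraries overlapped. The rise after siKEAP1 was 1.91 on the log2 scale (SE 0.059, adjusted p = 2.3e-10 from the edgeR quasi-likelihood fit, adjusted by Benjamini-Hochberg over all genes tested, as for every adjusted p here unless another tool is named). After siCCNF it fell by 0.87 on that scale (SE 0.058, adjusted p = 1.1e-07). G6pd2, an intronless paralog, had 1 count over all libraries, and how reads shared between near-identical copies were assigned is not stated.

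Because several members rose after siKEAP1, the members' promoters were searched for the core of the antioxidant response element, written TGACNNNGC, on both strands. RefSeq promoter windows (GRCm38.p6, 300 bases, from 250 before to 50 after a start) were given for 9 of the 10 members, 12 windows in all. The core was found in 3 of these 12 windows, against 12.4% of all 32851 windows. Windows with a match whose gene rose after siKEAP1 were those of G6pdx, Me1 and Pgd, and the last is not shown. The windows of G6pdx and Me1 are shown 5′ to 3′ along the gene, with the core in capitals. They run from 150 bases before the start to 25 after it. That of G6pdx lies at chrX:74428856-74429030 and reads the core on the opposite strand, from base -57 to base -49 before the start. That of Me1 lies at chr9:86695890-86696064 and holds the core on the gene's own strand, from base -6 to base 3 across the start.
G6pdx: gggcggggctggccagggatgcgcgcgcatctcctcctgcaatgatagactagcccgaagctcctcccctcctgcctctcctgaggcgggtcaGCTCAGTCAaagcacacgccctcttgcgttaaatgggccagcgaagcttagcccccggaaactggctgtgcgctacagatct
Me1: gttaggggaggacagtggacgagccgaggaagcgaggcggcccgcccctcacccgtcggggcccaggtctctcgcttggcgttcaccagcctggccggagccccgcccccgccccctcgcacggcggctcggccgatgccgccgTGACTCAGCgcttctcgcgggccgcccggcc
The third match was in the window of a second, downstream start of Pgd, as tgacattgc at chr4:149166071-149166079. Windows of Pgls, Rpia, Taldo1, Tkt, Idh1 and Idh2 held no such letters, though Tkt and Idh1 rose more than Me1 after siKEAP1. The window at the upstream Pgd start and a second Me1 window, at chr9:86687228-86687527, held none either. These matches describe the sequence, and no binding was measured here.

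**Figure D1:**
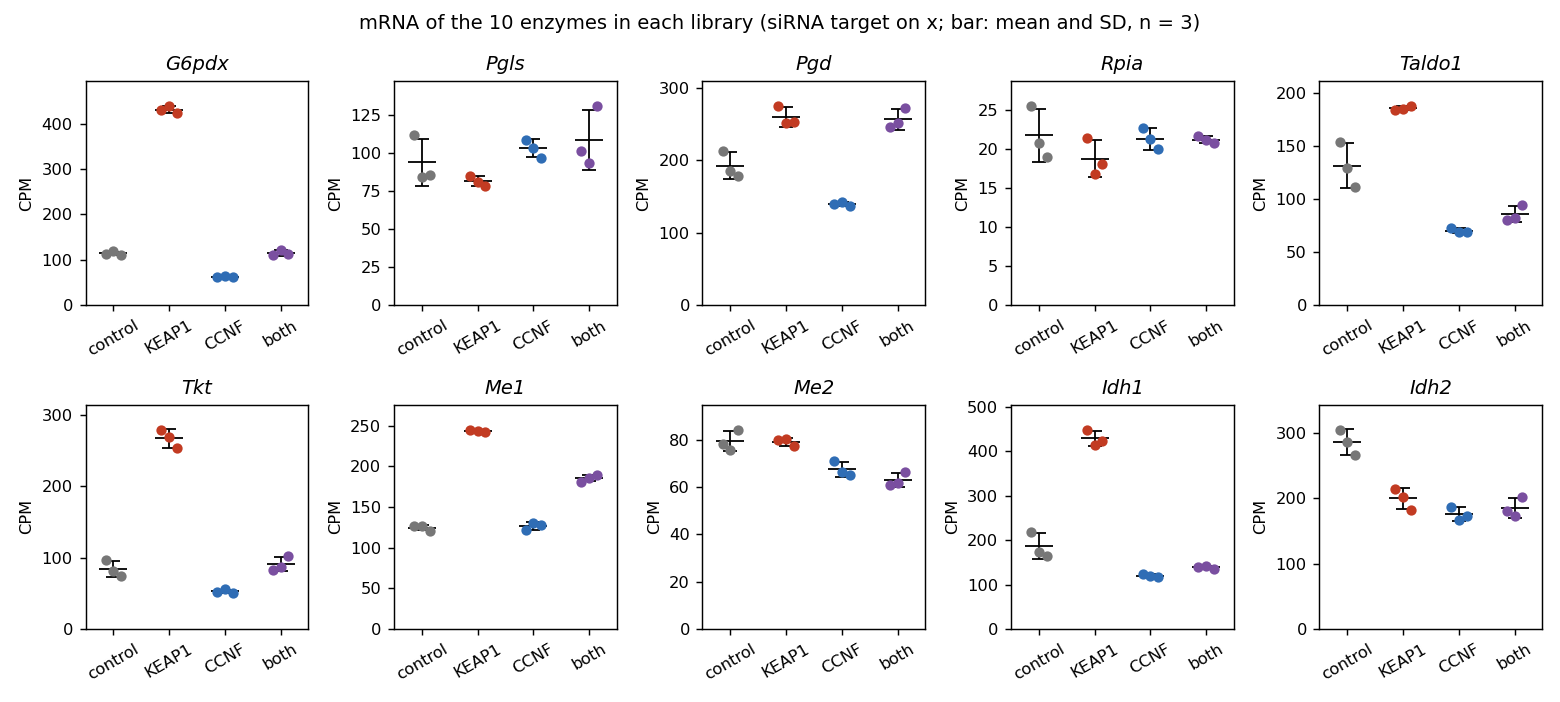
Level of each of the 10 mRNAs in every library, in CPM on linear axes that start at 0, by siRNA target (points, libraries in replicate order; bars, mean and SD, n = 3). The siKEAP1 libraries of G6pdx, Tkt, Taldo1, Idh1 and Me1 lie above those of every other group, as in G6pdx at 423 to 439 CPM against at most 122 CPM elsewhere.

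Pgls codes for 6-phosphogluconolactonase, the second enzyme of the oxidative branch (8:71592176-71601092, plus strand). It stood at 112, 84.3 and 85.2 CPM in siCONTROL, at 85.0, 81.0 and 78.3 CPM after siKEAP1, at 109, 103 and 96.9 CPM after siCCNF and at 102, 93.7 and 131 CPM after both. Every depleted group overlapped siCONTROL, in which replicate 1 was the highest. Its difference after siKEAP1 was -0.20 (SE 0.13, adjusted p = 0.23), with a 95% interval from -0.48 to 0.070, and it ranged from -0.28 without replicate 2 of siCONTROL to -0.069 without replicate 1 when single libraries were dropped.

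Pgd codes for 6-phosphogluconate dehydrogenase, which makes the second NADPH of the branch and releases ribulose 5-phosphate (4:149149991-149166771, minus strand). It stood at 213, 185 and 179 CPM in siCONTROL, at 275, 251 and 253 CPM after siKEAP1, at 139.7, 142 and 136 CPM after siCCNF and at 245, 251 and 272 CPM after both. Its siKEAP1 and siKEAP1/siCCNF libraries overlapped each other and lay above siCONTROL, and its siCCNF libraries lay below. Pgd rose by 0.43 on the log2 scale after siKEAP1 (SE 0.074, adjusted p = 0.00041) and fell by 0.46 after siCCNF (SE 0.074, adjusted p = 0.00020).

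In the non-oxidative branch, Tkt codes for transketolase, which moves 2-carbon units between sugar phosphates (14:30548359-30574720, plus strand). It stood at 96.4, 80.8 and 74.7 CPM in siCONTROL, at 279, 269.5 and 253 CPM after siKEAP1, at 51.5, 55.5 and 50.6 CPM after siCCNF and at 83.1, 87.1 and 103 CPM after both. As with G6pdx, siKEAP1 was the highest group, siCCNF the lowest, and siCONTROL and the double depletion overlapped. Tkt rose by 1.67 (SE 0.10, adjusted p = 4.7e-08) after siKEAP1 and fell by 0.68 (SE 0.10, adjusted p = 0.00010) after siCCNF on the log2 scale.

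Taldo1 codes for transaldolase, which works beside transketolase on 3-carbon units (7:141392199-141402968, plus strand). It stood at 154, 129 and 111 CPM in siCONTROL, at 184, 185 and 188 CPM after siKEAP1, at 72.9, 69.4 and 68.7 CPM after siCCNF and at 80.6, 82.1 and 94.8 CPM after both. The siKEAP1 libraries lay above siCONTROL and both groups with siCCNF lay below it. Taldo1 fell by 0.90 on the log2 scale after siCCNF (SE 0.10, adjusted p = 8.7e-06).

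Rpia codes for ribose-5-phosphate isomerase, which makes the sugar of nucleotides (6:70765720-70792232, minus strand). It stood at 25.6, 20.8 and 19.0 CPM in siCONTROL, at 21.5, 16.8 and 18.1 CPM after siKEAP1, at 22.7, 21.3 and 20.0 CPM after siCCNF and at 21.7, 21.2 and 20.8 CPM after both. Each group overlapped siCONTROL, and Rpia had the fewest counts of the 10 members. Its difference after siKEAP1 was -0.21 (SE 0.12, adjusted p = 0.17), with a 95% interval from -0.47 to 0.041. When each library was left out, it ranged from -0.32 without replicate 1 of siKEAP1 to -0.091 without replicate 1 of siCONTROL. With the replicate number as a block and a gene length trend removed, Rpia was called lower after siKEAP1 (-0.29, adjusted p = 0.029).

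Me1 codes for the cytosolic malic enzyme, which turns malate into pyruvate with the gain of NADPH (9:86581371-86695953, minus strand). It stood at 126, 127 and 121 CPM in siCONTROL, at 245, 244 and 242 CPM after siKEAP1, at 121, 131 and 128 CPM after siCCNF and at 181, 186 and 189 CPM after both. The siCCNF and siCONTROL libraries overlapped, the double depletion lay above both, and siKEAP1 lay highest. Me1 rose by 0.97 on the log2 scale after siKEAP1 (SE 0.054, adjusted p = 2.3e-08), and its difference after siCCNF was 0.022 (SE 0.054, adjusted p = 0.75), with a 95% interval from -0.093 to 0.14.

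Me2 codes for a mitochondrial malic enzyme that uses mainly NAD. It stood at 78.3, 75.7 and 84.2 CPM in siCONTROL, at 80.0, 80.3 and 77.1 CPM after siKEAP1, at 71.1, 66.2 and 65.1 CPM after siCCNF and at 61.0, 61.6 and 66.4 CPM after both. The siKEAP1 and siCONTROL libraries overlapped, and both groups with siCCNF lay below siCONTROL. The 95% interval of its difference after siKEAP1 ran from -0.15 to 0.14 on the log2 scale. After siCCNF it fell by 0.23 (SE 0.065, adjusted p = 0.0096), which did not pass when low genes were kept in the test (adjusted p = 0.051).

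Idh1 codes for the NADP-dependent isocitrate dehydrogenase of the cytosol and peroxisomes (1:65158616-65186500, minus strand). It stood at 219, 174 and 165 CPM in siCONTROL, at 449, 414 and 424 CPM after siKEAP1, at 124, 119 and 117 CPM after siCCNF and at 140.4, 141 and 134 CPM after both. The siKEAP1 libraries lay far above the others, and both groups with siCCNF lay below siCONTROL. Idh1 rose by 1.20 on the log2 scale after siKEAP1 (SE 0.091, adjusted p = 3.1e-07) and fell by 0.63 after siCCNF (SE 0.090, adjusted p = 7.4e-05).

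Idh2 codes for the mitochondrial NADP-dependent isocitrate dehydrogenase (7:80094846-80115392, minus strand). It stood at 305, 286 and 265 CPM in siCONTROL, at 215, 202 and 183 CPM after siKEAP1, at 187, 167 and 173 CPM after siCCNF and at 180.2, 172 and 203 CPM after both. All depleted libraries lay below the siCONTROL libraries, and the depleted groups overlapped one another. Idh2 fell by 0.52 after siKEAP1 (SE 0.084, adjusted p = 0.00028) and by 0.70 after siCCNF (SE 0.084, adjusted p = 1.7e-05) on the log2 scale.

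Counted over the members, siKEAP1 gave 6 higher, 1 lower and 3 that did not pass, beside 20.4% of all tested genes called higher and 20.2% called lower. Of the 6, G6pdx, Tkt and Idh1 changed by more than 2-fold, beside 7.59% of tested genes that rose by more than 2-fold. The median log2 difference was 0.47 over the 10 members and -0.01 over all genes tested. By branch, 2 of 3 oxidative and 2 of 3 non-oxidative genes rose, 1 of 2 malic enzymes rose, and the isocitrate dehydrogenases went in opposite directions.

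After siCCNF, 0 members were higher and 7 were lower, beside 22.5% and 25.5% of tested genes. The falls lay between 0.85-fold of siCONTROL in Me2 and 0.53-fold in Taldo1, and none passed 2-fold. The median was -0.55 over the members and 0.01 over all genes. Me1, Pgls and Rpia did not pass. When the 2 libraries that stood apart were left out, Pgls was called higher at 0.28 (adjusted p = 0.00066).

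After siKEAP1/siCCNF, 2 members were higher than siCONTROL and 4 lower, beside 20.6% and 23.6% of tested genes. Me1 rose by 0.57 (SE 0.054, adjusted p = 2.3e-06) and Pgd by 0.41 (SE 0.074, adjusted p = 0.00052) on the log2 scale. Idh2 fell by 0.63, Taldo1 by 0.62, Idh1 by 0.43 and Me2 by 0.33, with adjusted p between 5.2e-05 in Idh2 and 0.0017 in Idh1. The 95% interval of the G6pdx difference ran from -0.12 to 0.13 and that of Tkt from -0.10 to 0.33. The members' median was -0.01, and that of all genes 0.01. These 3 comparisons share the siCONTROL libraries, so their values are set side by side and were not correlated. Without the 2 libraries that stood apart, Pgls was also called higher, at 0.20 (adjusted p = 0.017).

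**Figure D2:**
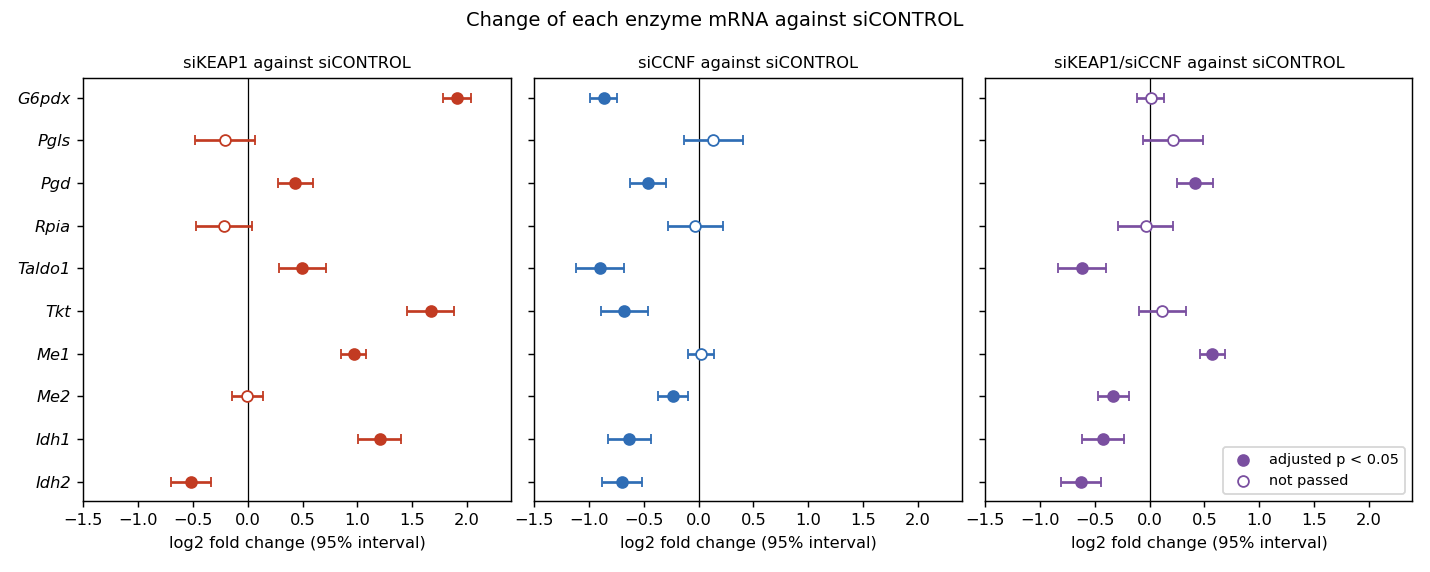
Log2 fold change of each member against siCONTROL after siKEAP1, siCCNF and siKEAP1/siCCNF (points, edgeR estimates from 3 libraries a group; bars, 95% intervals; filled points, adjusted p under 0.05). G6pdx runs from 1.91 after siKEAP1 to -0.87 after siCCNF and 0.01 after both.

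Addition of siCCNF to siKEAP1 lowered 6 members and raised 1, beside 26.9% and 24.1% of tested genes. G6pdx fell by 1.90 on the log2 scale (SE 0.059, adjusted p = 3.2e-10), Idh1 by 1.63 (SE 0.091, adjusted p = 1.9e-08), Tkt by 1.56 (SE 0.10, adjusted p = 5.6e-08) and Taldo1 by 1.12 (SE 0.10, adjusted p = 1.1e-06). These 4 fell by more than 2-fold, beside 9.17% of tested genes. Me1 fell by 0.39 and Me2 by 0.33. Pgd differed by -0.02, with a 95% interval from -0.18 to 0.14. Pgls was called higher at 0.42 (adjusted p = 0.015), a call that did not pass without replicate 3 of siKEAP1/siCCNF (0.27, adjusted p = 0.060) or without replicate 3 of siKEAP1 (0.39, adjusted p = 0.052). Without both libraries that stood apart, Idh2 was also called lower, by 0.17 (adjusted p = 0.028).

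In cells also depleted of CCNF, siKEAP1 raised 4 members and lowered 0 (siKEAP1/siCCNF against siCCNF), beside 3.00% and 2.19% of tested genes. G6pdx rose by 0.88 on the log2 scale (SE 0.058, adjusted p = 2.6e-06), Pgd by 0.88 (SE 0.074, adjusted p = 2.2e-05), Tkt by 0.79 (SE 0.10, adjusted p = 0.00052) and Me1 by 0.55 (SE 0.053, adjusted p = 6.3e-05). Taldo1 and Idh1 were higher in each of the 3 siKEAP1/siCCNF libraries than in any siCCNF library, at 0.29 and 0.21, but did not pass (adjusted p = 0.13 and 0.24). Both passed without replicate 1 of siCONTROL, a library outside this comparison that enters the common fit (0.28, adjusted p = 0.027 for Taldo1 and 0.20, adjusted p = 0.030 for Idh1). The fold change in CCNF-depleted cells was thus 1.84 for G6pdx against 3.76 in control cells, 1.73 against 3.18 for Tkt and 1.15 against 2.30 for Idh1, while that of Pgd was 1.84 against 1.35.

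The difference between these effects of siKEAP1 was tested as an interaction, the log2 effect in CCNF-depleted cells minus that in control cells. It passed for 6 members, of which 4 were negative and 2 positive, beside 10.5% and 10.6% of tested genes. It was -1.04 for G6pdx (SE 0.082, adjusted p = 5.2e-06), -0.998 for Idh1 (SE 0.13, adjusted p = 0.00014), -0.88 for Tkt (SE 0.14, adjusted p = 0.00073) and -0.42 for Me1 (SE 0.076, adjusted p = 0.0017). G6pdx alone passed 2-fold, beside 4.07% of tested genes with a negative difference of that size. Idh1 lay just short of 2-fold, and ranged from -1.13 to -0.92 when single libraries were left out, so it passed 2-fold in part of these fits. It was positive for Idh2 (0.59, SE 0.12, adjusted p = 0.0034), which siKEAP1 lowered in control cells but not in CCNF-depleted cells, and for Pgd (0.44, SE 0.10, adjusted p = 0.0088). Taldo1 gave -0.21 (adjusted p = 0.33), and -0.34 (adjusted p = 0.036) without replicate 1 of siCONTROL. Beside these values stands the Keap1 mRNA, which was 14.4% of siCONTROL after siKEAP1 and 27.5% after both siRNAs.

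**Figure D3:**
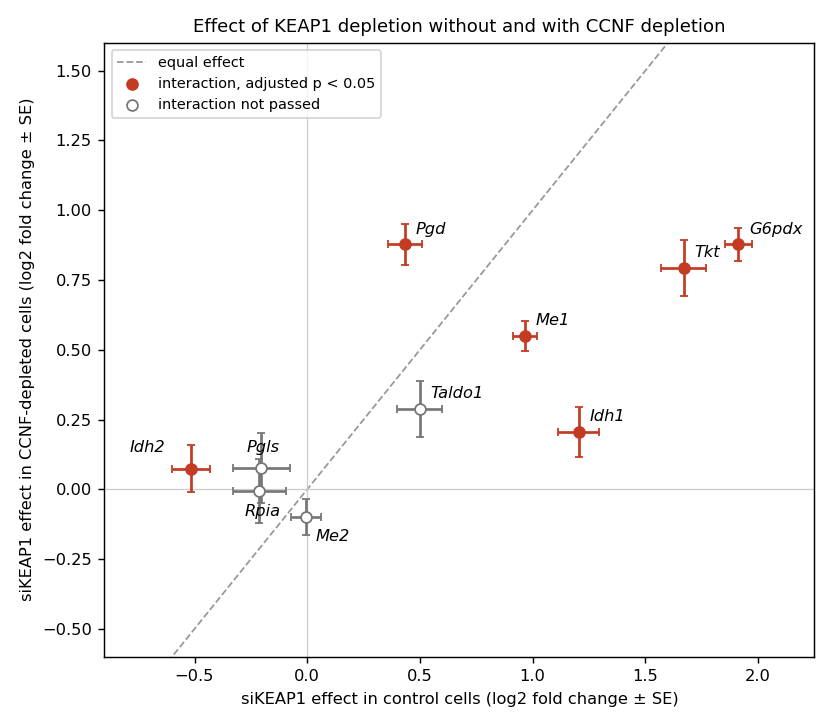
Log2 fold change after siKEAP1 in CCNF-depleted cells (siKEAP1/siCCNF against siCCNF) plotted against that in control cells (siKEAP1 against siCONTROL), with SE from 3 libraries a group. Points below the dashed line of equal effects include G6pdx (1.91 and 0.88) and Idh1 (1.20 and 0.21), and Pgd (0.43 and 0.88) lies above it.

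Levels were compared between genes by FPKM (fragments scaled to library depth and to the gene length given in the deposited table). These lengths ran from 2171 bases in Taldo1 to 7355 in Tkt, and the order between genes rests on them. In siCONTROL, Pgd had 192 CPM and G6pdx 114 CPM, the reverse of their order by FPKM. How well these lengths match the transcripts of these cells was not tested. In siCONTROL the order was Idh2 (109 ± 7.78 FPKM), Idh1 (66.7 ± 10.5), Taldo1 (60.1 ± 9.81), G6pdx (36.9 ± 1.31), Me1 (32.2 ± 0.979), Me2 (32.1 ± 1.69), Pgd (29.6 ± 2.88), Pgls (24.7 ± 4.13), Tkt (11.3 ± 1.52) and Rpia (4.03 ± 0.634). Idh1 overlapped Taldo1, and each of Me1, Me2 and Pgd overlapped the next gene in the order. After siKEAP1, Idh1 (154 ± 6.51 FPKM) and G6pdx (139 ± 2.46) came first, followed by Taldo1 (85.4 ± 0.827) and Idh2 (76.9 ± 6.24), and no neighbours overlapped. After siCCNF, Idh2 (67.3 ± 4.29 FPKM) again came first and G6pdx (20.2 ± 0.585) dropped below Pgd, with only Tkt and Rpia under it. After both, Idh2 (71.0 ± 6.31 FPKM), Idh1 (49.7 ± 1.22) and Me1 (47.9 ± 1.14) led, and the last of these overlapped Idh1. By FPKM, Tkt and Rpia were the lowest members in siCONTROL, siCCNF and siKEAP1/siCCNF.

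**Figure D4:**
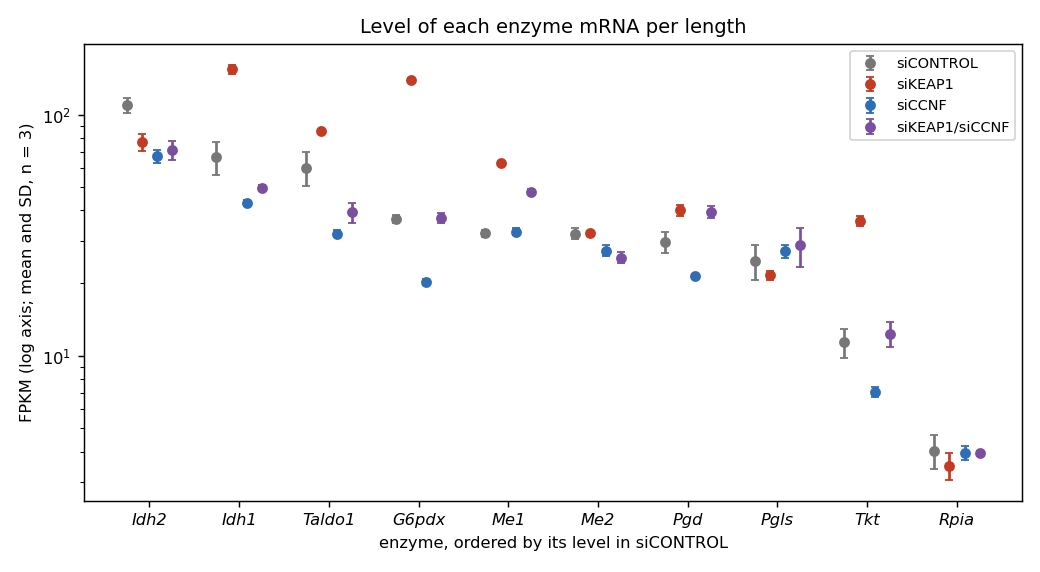
FPKM of each member on a log axis in the 4 groups, with genes ordered by their level in siCONTROL (points, means; bars, SD, n = 3). G6pdx moves up from 36.9 FPKM in siCONTROL to 139 FPKM after siKEAP1, where only Idh1 lies above it, and Rpia stays lowest at 3.50 to 4.03 FPKM.

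The summed FPKM of the 10 genes was 376 to 447 in the siCONTROL libraries, 638 to 672 after siKEAP1, 275 to 292 after siCCNF and 343 to 377 after both. Only the siCONTROL and siKEAP1/siCCNF libraries overlapped in this sum. The ratio of cytosolic Idh1 to mitochondrial Idh2 was 0.566 to 0.672 in siCONTROL, 1.92 to 2.17 after siKEAP1, 0.617 to 0.666 after siCCNF and 0.618 to 0.766 after both. It therefore crossed 1 after siKEAP1 alone and did so in each of its 3 libraries. The ratio of Me1 to Me2 was 0.914 to 1.07, 1.94 to 2.00, 1.09 to 1.26 and 1.82 to 1.92 in the same order of groups, so that both groups with siKEAP1 lay above both groups without it.

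The ratio of G6pdx to Pgd, the 2 dehydrogenases of the oxidative branch, was 1.11 to 1.35 in siCONTROL, 3.28 to 3.65 after siKEAP1, 0.930 to 0.954 after siCCNF and 0.873 to 1.01 after both. It was highest after siKEAP1 and lowest in the groups with siCCNF, which overlapped each other. The ratio of Tkt to Taldo1 was 0.184 to 0.198, 0.398 to 0.447, 0.209 to 0.236 and 0.304 to 0.320 in that order, with no overlap between groups. These ratios are descriptions with no test. The change of a ratio between groups shows unequal change of its 2 genes, and its level within a group rests on their gene lengths.

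**Figure D5:**
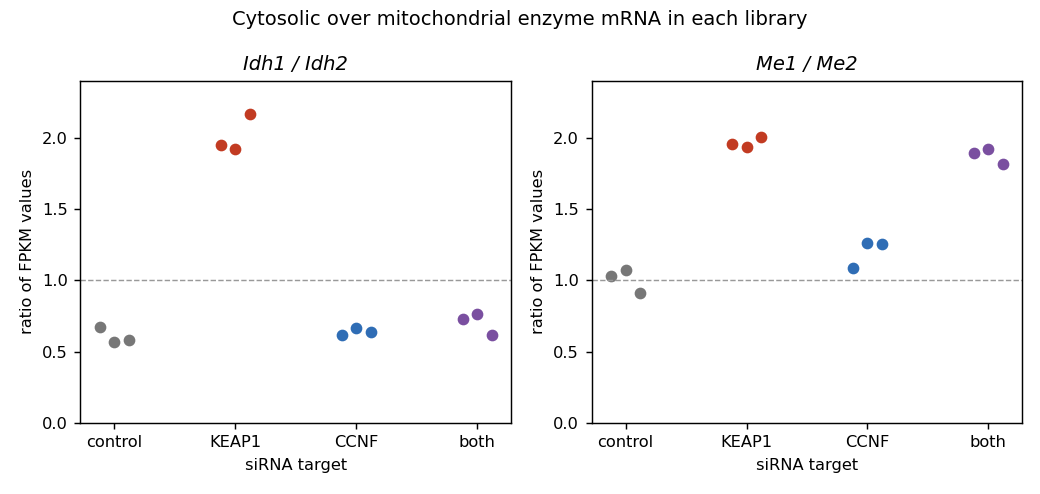
Ratio of FPKM values of Idh1 to Idh2 (left) and of Me1 to Me2 (right) in each of the 12 libraries, on linear axes that start at 0, with a dashed line at 1. Idh1 exceeds Idh2 in the siKEAP1 libraries (1.92 to 2.17) and in no other library, and Me1 exceeds Me2 most in siKEAP1 and siKEAP1/siCCNF (1.82 to 2.00).

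The NADPH-using enzymes and other NRF2 reference targets were read beside the members (Nqo1, Gsr, Txnrd1, Srxn1, Gclc, Gclm, Slc7a11 and Hmox1). All 8 were higher after siKEAP1 (20.4% of all genes tested), with a median of 2.02 on the log2 scale, against 0.47 for the members. After siCCNF, 1 was higher and 5 were lower (22.5% and 25.5% of all genes tested), with a median of -0.27. After both, 7 were higher than siCONTROL and none lower, whereas the members split into 2 higher and 4 lower. All 8 were lower after siKEAP1/siCCNF than after siKEAP1 and higher than after siCCNF, and the interaction was negative in all 8, of which 7 passed. The shares over all genes tested were 20.6% higher and 23.6% lower for both against siCONTROL, 26.9% lower against siKEAP1, 3.00% higher against siCCNF and 10.5% with a negative interaction. Gclc and Nqo1 rose by 2.91 and 2.82 after siKEAP1 and still by 1.08 and 1.44 after both on the log2 scale, where G6pdx differed by 0.01 and Idh1 fell by 0.43. Gclm rose by 2.33 after siKEAP1 and differed by -0.10 after both (adjusted p = 0.27).

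Other genes of pentose and ribose metabolism were read next. Of 11, 8 were tested, of which, under the table's symbols, 4 rose after siKEAP1 and 1 fell, beside 20.4% and 20.2% of all genes tested. With the symbols Pgm1 and Pgm2 exchanged, as a later annotation has them, 5 rose and 0 fell. Shpk, which phosphorylates sedoheptulose for the non-oxidative branch, rose by 0.81 (SE 0.28, adjusted p = 0.033), Prps2, which makes the ribose donor of nucleotides, by 0.75 (SE 0.097, adjusted p = 4.1e-05), H6pd, the endoplasmic reticulum counterpart of the first 2 oxidative steps, by 0.55 (SE 0.12, adjusted p = 0.0027) and the epimerase Rpe by 0.33 (SE 0.061, adjusted p = 0.00073), all on the log2 scale. The gene that the table names Pgm2 (ENSMUSG00000025791) fell by 1.02 (SE 0.074, adjusted p = 2.5e-07). Its identifier carries the symbol Pgm1 in a later annotation, the phosphoglucomutase that makes glucose 6-phosphate, so it is no pentose gene. The table's Pgm1 (ENSMUSG00000029171), the mutase of pentose phosphates, rose by 0.56 (SE 0.071, adjusted p = 3.5e-05). Rbks, a ribokinase with few counts, stood at 1.08 and did not pass (SE 0.49, adjusted p = 0.097), and Dera, a deoxyribose phosphate aldolase, at -0.011 (adjusted p = 0.95). After siCCNF, 0 rose and 1 fell with either naming, beside 22.5% and 25.5% of all genes tested, and the 1 was Prps1 (-0.93, SE 0.11, adjusted p = 1.8e-05). Rpe, which takes the same pentose phosphate as Rpia, thus rose where Rpia did not pass.

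Among 9 tested genes listed as other NADPH sources, folate enzymes and the NAD kinases, which make NADP, 4 rose and 3 fell after siKEAP1. This stands beside 20.4% and 20.2% of all genes tested. Aldh1l1, a cytosolic folate enzyme that yields NADPH, stood at 0.538, 1.14 and 0.433 CPM in siCONTROL and at 6.64, 7.05 and 6.45 CPM after siKEAP1. It was therefore low in all groups, and its rise was 3.27 on the log2 scale (SE 0.34, adjusted p = 6.2e-06). The cytosolic NAD kinase Nadk rose by 0.86 (SE 0.056, adjusted p = 1.0e-07), while the mitochondrial Nadk2 fell by 0.59 (SE 0.067, adjusted p = 1.4e-05). Mitochondrial folate enzymes fell in 2 cases, Mthfd2 by 0.74 and Mthfd2l by 0.33, and Mthfd1l rose by 0.30. Aldh1l2 of the same list differed by 0.14 and did not pass (adjusted p = 0.59). Me3, the third malic enzyme, differed by -0.62 and did not pass (adjusted p = 0.069). After siCCNF, 2 rose and 3 fell, beside 22.5% and 25.5% of all genes tested, and Nadk was again higher, by 0.27 (SE 0.056, adjusted p = 0.0016). The interaction was -0.77 for Nadk (SE 0.079, adjusted p = 3.4e-05) and 0.75 for Nadk2 (SE 0.094, adjusted p = 0.00013). The effect of siKEAP1 on these kinases thus also differed between CCNF-depleted and control cells, in opposite directions. The part of the unequal Keap1 mRNA in this was not tested.

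For the 4 members with the largest rises after siKEAP1, the genes with the most similar pattern over the 4 group means were sought among 11815 other genes, by the root mean square difference of centred log2 CPM. For G6pdx these were Rhov (0.073), Cadm4 (0.076) and Ociad2 (0.098), against a spread of 0.041 between the replicates of G6pdx itself. For Tkt they were Kcnab2 (0.027), Atp8b4 (0.042) and Ankrd33b (0.078), and the spread of Tkt was 0.11. For Me1 they were Them6 (0.056), Gm9869 (0.062) and the sulfiredoxin gene Srxn1 (0.064), with a spread of 0.031, and for Idh1 they were Fam131c (0.040), Sigirr (0.048) and Layn (0.051), with a spread of 0.095. The likeness rests on 4 group means and is a description.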

How the data were processed

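RNA of 12 libraries from C2C12 cells was sequenced and processed by the authors and their service provider. Per the labels, the submitters' processing notes name HISAT2 and GRCm39, with versions not given, whereas 98.3% of the 54409 genes that the deposited table shares with GENCODE M21 carry GRCm38 coordinates, which are printed here (9 of the 10 members match exactly, Me2 does not). The counting tool is not given in the sources used here. The deposited table holds raw read counts per gene, FPKM values that the authors normalized by gene length and depth, and the authors' own comparisons (fold changes and p-values), which were not used.

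Counts were tested with edgeR 4.0.16 in R 4.3.3, with limma 3.58.1 and DESeq2 1.42.0 for alternatives. Genes were filtered by filterByExpr, scaled by TMM and fitted with 4 group means over all 12 libraries by the quasi-likelihood test, and p-values were adjusted over 15122 genes (called at an adjusted p under 0.05). The CPM values are on TMM-scaled totals of the tested genes. SE is the log2 fold change divided by the square root of F. Similar patterns used a prior count of 2 and genes with a mean of at least 1 log2 CPM. Promoters were searched in Python 3.11.15. The test code was run on simulated data first.

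Named genes are the 10 members, Keap1, Ccnf and Nfe2l2, up to 3 highest and 3 lowest genes of each further list after siKEAP1, and the 3 most similar genes of 4 members. G6pd2, H6pd, Rpe, Mthfd2l, Aldh1l2, Gclm and Gsr and the marker genes fall outside this rule, and those given with values were chosen after their values were seen. The symbols Pgm1 and Pgm2 of the table are exchanged in a later annotation, and list counts are given under both namings, the second added after the values were seen. Members and lists were chosen with earlier results of these data known. P-values cover the spread between libraries, and counts measure mRNA only.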

Additional observations from a re-analysis of the deposited data

Results flagged for a closer look

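For 6 of the 10 members the effect of siKEAP1 differed between CCNF-depleted and control cells by the interaction test of edgeR, with 3 libraries a group, beside 10.5% of all tested genes with a negative and 10.6% with a positive difference. The difference of the log2 effects was -1.04 for G6pdx, -0.998 for Idh1, -0.88 for Tkt and -0.42 for Me1, and 0.59 for Idh2 and 0.44 for Pgd. In G6pdx, Tkt and Me1 siKEAP1 raised the mRNA in both settings, less so with CCNF depleted, in Pgd more so. Idh1 and Idh2 did not pass in CCNF-depleted cells in the fit of all libraries. Keap1 mRNA was 12.6 ± 0.279 CPM (n = 3) after siKEAP1 and 24.1 ± 2.56 CPM after both siRNAs, and the part of this difference in the 6 values was not tested.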

How the results depend on the processing

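Of 1310 alternative values of 60 member results (10 genes in 6 comparisons), 1261 kept their direction and their side of the threshold. Under these alternatives 40 results did not change. An added requirement of a 2-fold change was counted apart and is not among the 1310 values. Small counts of a single direction could move by more than 1.5 times. With the replicate number as a block and the gene length trend removed, lower calls after siKEAP1 went from 1 to 2. Higher calls for both against siKEAP1 went from 1 to 2 there, and to 0 without replicate 3 of siKEAP1 or of siKEAP1/siCCNF. The total of members called in a comparison moved by more than 1.5 times only under the 2-fold requirement. This left 3 of 7 after siKEAP1, 0 of 7 after siCCNF and 0 of 6 after both. It left 4 of 7 for both against siKEAP1, 0 of 4 for both against siCCNF and 1 of 6 for the interaction. Leaving out each library in turn gave 7 to 7, 7 to 7, 6 to 7, 6 to 7, 4 to 6 and 6 to 7 calls in that order. Leaving out both libraries that stood apart gave 7, 8, 7, 8, 6 and 7, and the interaction of Taldo1 then passed at -0.41 (adjusted p = 0.00089), as did Taldo1 at 0.20 and Idh1 at 0.22 for both against siCCNF. DESeq2, limma on log2(FPKM + 1) and total library sizes gave the counts of the first fit, and TPM in place of FPKM leaves the order within a library as it is by construction.

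Reversals were confined to differences that did not pass in the first fit. For Me2 after siKEAP1 the value turned to 0.0083 with total library sizes, 0.012 with at least 10 counts in every library, 8.6e-05 with the compared libraries only, 0.0016 with DESeq2 and 0.0031 with limma on FPKM. With total library sizes Me1 after siCCNF became -0.0067 and Rpia for both against siCCNF 0.025, which limma gave as 3.2e-05. With a gene length trend removed, Rpia after siCCNF became 0.0050 and Pgd for both against siKEAP1 0.11. Without the 2 libraries that stood apart, Rpia became 0.10 after siCCNF, 0.11 after both and 0.0041 for both against siCCNF, Pgls -0.085 and Idh2 -0.0025 for both against siCCNF, and the interaction of Pgls -0.015. Leave-one-out ranges crossed 0 for G6pdx after both (-0.038 to 0.039), Me2 after siKEAP1 (-0.046 to 0.032), Me1 after siCCNF (-0.0019 to 0.053), Pgd for both against siKEAP1 (-0.059 to 0.023), Rpia after siCCNF (-0.12 to 0.10), after both (-0.13 to 0.089) and for both against siCCNF (-0.060 to 0.037), and Pgls (-0.084 to 0.16) and Idh2 (-0.0017 to 0.12) for both against siCCNF. The cause was not tested.

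Whether the replicate numbers pair the samples is not settled by these values. Of 18 same-number pairs, 4 correlated above 0.1, with r from -0.27 to 0.20. Pairs with different numbers gave r from -0.28 to 0.39, and both of these ends came from pairs of siCONTROL replicate 1 with siKEAP1/siCCNF. With the replicate number as a block, 7, 7, 6, 7, 4 and 6 members were called, the numbers of the first fit. With the block and the length trend removed there were 8, 7, 6, 8, 4 and 6 calls, Rpia being called lower after siKEAP1 (-0.29, adjusted p = 0.029) and higher for both against siKEAP1 (0.30, adjusted p = 0.020), and Rpia became 0.014 after siCCNF and 0.0083 after both, and Pgd 0.11 for both against siKEAP1.

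The members had at least 383 counts in each library, and the part of depth, of the number of replicates or of the libraries that stood apart in the width of the errors was not tested.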

Other observations

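The genes that feed or compete for glucose 6-phosphate were all tested (9 of 9). After siKEAP1, under the table's symbols, 5 rose and 1 fell, beside 20.4% and 20.2% of all genes tested. With Pgm1 and Pgm2 exchanged, as a later annotation has them, 4 rose and 2 fell, the second being the phosphoglucomutase that the table names Pgm2, which fell by 1.02 (SE 0.074, adjusted p = 2.5e-07). Pfkfb3, which makes an activator of phosphofructokinase, rose by 0.49 (SE 0.11, adjusted p = 0.0030) and hexokinase Hk1 by 0.36 (SE 0.052, adjusted p = 0.00012) on the log2 scale, while the phosphofructokinase Pfkl fell by 0.69 (SE 0.087, adjusted p = 3.3e-05). Tigar stood at 0.067 and Pfkp at 0.043, and neither passed (adjusted p = 0.72 and 0.68). After siCCNF, 2 rose and 4 fell with either naming, beside 22.5% and 25.5% of all genes tested. Pfkfb3 rose by 1.05 (SE 0.11, adjusted p = 4.0e-06) and Tigar, whose product removes that activator, by 0.38 (SE 0.13, adjusted p = 0.025), and Hk1 fell by 0.85 (SE 0.053, adjusted p = 5.6e-08) and Pfkp by 0.54 (SE 0.073, adjusted p = 4.6e-05).

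The NAD-dependent isocitrate and malate dehydrogenases, which act on the substrates of Idh1, Idh2 and the malic enzymes, were tested in 5 of 5 cases. After siKEAP1, 0 rose and 1 fell, beside 20.4% and 20.2% of all genes tested (Mdh2, by 0.31, SE 0.089, adjusted p = 0.013). After siCCNF, 0 rose and 3 fell, beside 22.5% and 25.5% of all genes tested. Mdh1, the cytosolic malate dehydrogenase, stood at 192, 149 and 149 CPM in siCONTROL and at 56.5, 56.3 and 54.8 CPM after siCCNF, a fall of 1.55 on the log2 scale (SE 0.098, adjusted p = 6.8e-08). It fell by 1.24 (SE 0.097, adjusted p = 5.2e-07) after both siRNAs. Idh3a, the catalytic subunit of the NAD-dependent isocitrate dehydrogenase, fell by 1.10 (SE 0.080, adjusted p = 1.9e-07) after siCCNF, where its partners Idh3b (0.16, adjusted p = 0.16) and Idh3g (-0.13, adjusted p = 0.22) did not pass. The adjusted p-values are those of edgeR with 3 libraries a group.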
